A study of Mus musculus with 6 samples.

Results

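Conventional dendritic cells were taken from single-cell RNA profiles of bone marrow and blood of wild-type mice by a rule on their own transcripts. A cell was chosen when its 4 MHC class II transcripts (H2-Aa, H2-Ab1, H2-Eb1 and Cd74) summed to at least 20 UMIs per 10000 UMIs (CP10k), when it held at least 1 UMI of Flt3, Zbtb46, Clec9a, Xcr1 or Cd209a, and when it held none of Siglech, Cd79a and Cd3e, which mark plasmacytoid dendritic cells, B cells and T cells. A UMI is a molecular tag that counts 1 captured transcript. The rule found 636 cells among the 26893 cells that had at least 500 UMIs and at most 10% mitochondrial UMIs. Per library, 176 cells were chosen in marrow of young mice at steady state, 189 in marrow of aged mice at steady state, 41 in marrow of young mice 24 h after stroke, 76 in marrow of aged mice 24 h after stroke, 11 in blood of young mice and 143 in blood of aged mice.

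All 6 libraries came from wild-type animals, and each group was 1 library. Stroke was middle cerebral artery occlusion, a closure of the main artery to the side of the brain, 24 h before sampling, and the steady-state mice had no treatment. The marrow libraries were enriched for cells with the surface antigens Gr1 or c-kit, of neutrophils and monocytes and of progenitors, and the blood libraries were sorted as CD11b+ cells with and without Ly6G. Neither sort was made for dendritic cells, so the shares below are shares of sorted cells and not of marrow or blood. Marrow and blood were sorted on different antigens, so tissue and sort cannot be told apart where they are compared below. The ages, the strain and the number of animals behind each library are not given in the sources used here. With 1 library in each group no comparison of age or stroke carries a replicate check or a p-value, and every interval below covers counting error only.

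Conventional dendritic cells take up antigen, cut it in endosomes and show the peptides to CD4+ T cells on MHC class II. They arise in the marrow from dividing Flt3+ progenitors, leave it as immature precursors through the blood, and mature in tissues. The cDC1 branch depends on Irf8, Batf3 and Id2, bears Clec9a and the chemokine receptor Xcr1, and presents antigen of dead cells to CD8+ T cells. The cDC2 branch depends on Irf4 and Zeb2, bears Sirpa and, in part, Cd209a and Clec10a, and mainly primes CD4+ T cells.

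The H2 chains that the rule read, and the proteins that load them, are encoded in 1 stretch of chromosome 17, and their promoters are known for a conserved Y box that binds NF-Y next to the elements through which the transactivator Ciita acts. Promoter windows of 250 bases before to 50 bases after the start site were taken from RefSeq on the GRCm38.p6 build. The motif searched was GATTGG or its reverse complement CCAATC, which are the 2 strands of 1 motif, and matches are in capitals. Shown, 5′ to 3′ on the gene's own strand, are H2-Aa (chr17:34287774-34288073, minus strand), H2-Eb1 (chr17:34305617-34305916, plus strand) and H2-DMb1 (chr17:34152941-34153240, plus strand), an α chain, a β chain and a subunit of the loading catalyst H2-DM.
H2-Aa: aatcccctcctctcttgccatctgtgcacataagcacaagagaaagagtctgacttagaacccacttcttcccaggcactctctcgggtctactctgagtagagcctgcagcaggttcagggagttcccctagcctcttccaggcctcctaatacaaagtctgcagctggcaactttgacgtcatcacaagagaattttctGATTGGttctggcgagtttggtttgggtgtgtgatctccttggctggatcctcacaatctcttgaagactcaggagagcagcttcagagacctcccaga
H2-Eb1: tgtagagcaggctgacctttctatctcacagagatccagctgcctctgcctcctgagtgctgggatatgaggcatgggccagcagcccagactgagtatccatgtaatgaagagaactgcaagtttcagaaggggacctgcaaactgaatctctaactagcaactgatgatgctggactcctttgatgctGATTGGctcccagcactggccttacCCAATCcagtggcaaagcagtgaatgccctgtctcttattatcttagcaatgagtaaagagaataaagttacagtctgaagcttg
H2-DMb1: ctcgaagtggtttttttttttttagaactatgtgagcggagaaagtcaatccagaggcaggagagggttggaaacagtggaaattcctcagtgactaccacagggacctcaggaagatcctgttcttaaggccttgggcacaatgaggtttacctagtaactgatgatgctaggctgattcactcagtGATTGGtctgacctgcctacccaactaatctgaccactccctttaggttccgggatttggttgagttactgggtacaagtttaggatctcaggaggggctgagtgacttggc
The first match began 49 bases before the start site in H2-Aa, 60 bases before it in H2-Eb1, which held 2 matches, and 62 bases before it in H2-DMb1. Matches were also found in the windows of H2-DMb2, H2-Oa and H2-Ob, at 91, 44 and 58 bases before the start. Of 2 windows of H2-DMa 1 held no match and the other held 1 at 199 bases before the start. Of all 32851 promoter windows of this length, 5292 (16.1%) held the motif, so a match describes a window and marks no binding site.

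The chosen cells were 2.14% of kept cells in young steady-state marrow (95% exact Clopper-Pearson interval 1.84 to 2.48) and 2.96% in aged steady-state marrow (2.56 to 3.40). After stroke they were 1.81% (1.30 to 2.45) in young and 2.86% (2.26 to 3.57) in aged marrow. Young blood had 0.542% (0.271 to 0.968) and aged blood 2.68% (2.26 to 3.15). The aged library of each pair had the higher share, and the intervals of the pair did not overlap in steady-state marrow and in blood but did after stroke. The kept cells had median totals of 7743, 9150, 7981, 11255, 4192 and 4682 UMIs in that order of libraries, so depth differed between the members of each pair. After each cell with at least 1000 UMIs was thinned to that number, the rule found 96, 77, 14, 30, 6 and 57 cells, and the steady-state marrow shares became 1.17% in young and 1.21% in aged mice. After stroke they became 0.761% and 1.24%, with 425 young and 242 aged cells left out as too shallow. The steady-state marrow difference was therefore not seen at equal depth, whereas in blood 1.07% of aged cells and 6 of 1948 young cells were chosen.

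The values that chose the cells ran from the threshold upward without a gap. The MHC class II sum had a median of 186 CP10k, with quartiles at 63 and 388 and a highest cell at 1139 CP10k. Just inside the threshold, at 20 to 25 CP10k, lay 38 of the 636 cells, and 57 cells at 15 to 20 CP10k met the rest of the rule and stayed outside. In the 38 cells just inside, Cst3, a cysteine protease inhibitor abundant in dendritic cells, summed to 37.2 CP10k against 24.9 CP10k just outside and 86.6 CP10k in all chosen cells. Of the chosen cells, 156 held a single UMI of the 5 dendritic genes. Of 762 cells that passed both positive steps, 89 were removed for Siglech, 33 for Cd79a and 7 for Cd3e, with some cells removed for more than 1 of these. The 6 libraries shared 104 cell barcodes, of which 5 belonged to chosen cells and 0 to chosen cells in both libraries.

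**Figure D1:**
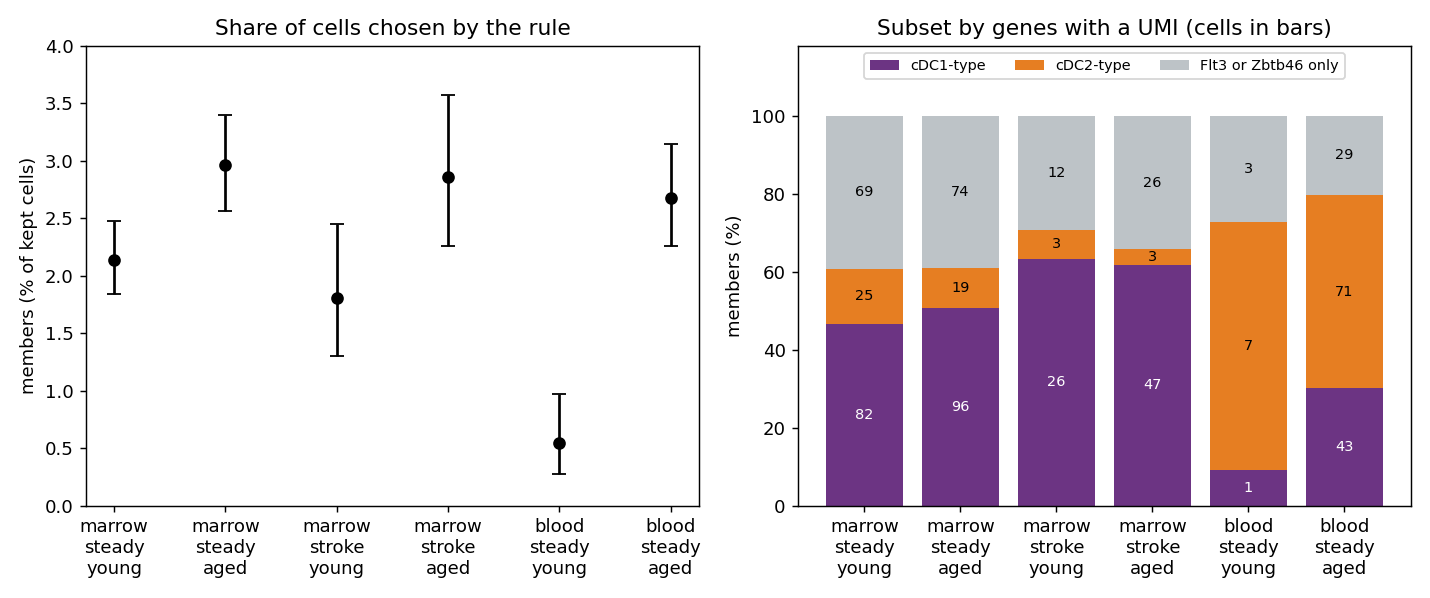
Left, share of kept cells chosen by the rule in each library, in percent with exact 95% intervals; right, chosen cells by subset (cDC1-type with Xcr1 or Clec9a, cDC2-type with Cd209a only, or Flt3 or Zbtb46 only), in percent with cell numbers in the bars. The shares run from 0.542% in young blood to 2.96% in aged steady-state marrow, and cDC1-type cells are 46.6% to 63.4% of the chosen cells in marrow against 9.09% and 30.1% in blood. Marrow and blood were sorted on different antigens.

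Flt3 was the gene of the 5 found in most chosen cells of each library except young blood, where Cd209a was. Flt3, the growth factor receptor of the lineage, had a UMI in 69.3%, 67.7%, 90.2%, 89.5%, 54.5% and 76.9% of the chosen cells, in the order young and aged steady-state marrow, young and aged marrow after stroke, young and aged blood. Clec9a, a receptor for dead cells (chr6:129408862-129424764), was detected in 45.5%, 49.7%, 63.4%, 51.3%, 9.09% and 28.7% of them. Xcr1, the chemokine receptor of cDC1 (chr9:123852315-123862029), was found in 17 of 176, 22 of 189, 5 of 41, 26 of 76, 0 of 11 and 9 of 143 cells. Its highest share was in aged marrow after stroke, at 34.2%. Its level there was 0.449 CP10k, against 0.464 and 0.567 CP10k in young and aged steady-state marrow. The chosen cells there were deeper, with a median of 15480 UMIs against 5707 and 7420 UMIs. Young marrow after stroke had a median of 15192 UMIs, with Xcr1 in 12.2% of the chosen cells at 0.351 CP10k. The part of depth in the Xcr1 share was not tested. Cd209a, a C-type lectin of monocyte-derived cells and of cDC2, was detected in 21.6%, 16.9%, 12.2% and 5.26% of the marrow cells and in 72.7% and 69.2% of the blood cells. Zbtb46, a transcription factor of the conventional lineage, was detected in between 17.1% and 26.8% of the cells. Cd79a+ cells, with at least 2 Cd79a UMIs and none of Cd3e and Siglech, should lack Clec9a and Xcr1. These 2 genes were detected in 0 of them in any library. Their median totals were 4290 to 7700 UMIs, against 5707 to 15480 UMIs in the chosen cells. Flt3 was less specific, since it was detected in 33.3% and 27.7% of the Cd79a+ cells of steady-state marrow.

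The label was checked on genes that the rule did not read. Against the other kept cells of the same library, the genes that led in every library with enough members were H2-DMb1, Slamf7, Ckb, Ciita, Batf3 and Ifi205. H2-DMb1 was higher by log2 3.17 to 3.75 over the 5 libraries other than young blood, Ciita, the master activator of class II transcription, by 2.55 to 3.75, and Batf3, required for cDC1, by 2.23 to 4.17. Lower in this order were the γ-interferon-induced thiol reductase Ifi30, at 1.76 to 2.32, and the double-strand RNA sensor Tlr3, at 1.64 to 2.86. The 7 genes of class II loading and transactivation summed to 14.6, 14.9, 17.4, 17.5, 14.4 and 18.2 CP10k in the chosen cells, against 1.40 to 2.75 CP10k in the other cells. Trac, Cd4 and Bcl11b of the T cell list were at 0 UMIs in all chosen cells, and Cd3e was at 0 by rule. On these genes the marrow cells as a whole bore the label, though H2-DMb1 and Ciita belong to the class II system that the rule read. In blood the lists were mixed. The dendritic lineage factors summed to 36.9 and 38.8 CP10k in young and aged blood, against 40.5 and 42.9 CP10k in the other cells. The cDC1 program stood at 6.36 and 14 against 6.1 and 6.27 CP10k, and the cDC2 program at 37.2 and 33.3 against 23.5 and 25.1 CP10k. The monocyte list stood at 200 and 174 against 95.8 and 157 CP10k. In addition, 73 of the 636 cells carried much RNA of another lineage. The cells known by Flt3 or Zbtb46 alone carried monocyte or progenitor transcripts, and the cDC2-type cells monocyte transcripts, as given below.

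By summed level, RNA of neutrophils was the largest foreign share in marrow, and monocyte RNA in blood. The 15 neutrophil genes summed to 431, 503, 191, 122, 144 and 42 CP10k over the chosen cells of the 6 libraries, while the median cell held 45.2, 39.8, 8.09, 11.1, 11.3 and 8.54 CP10k. A low level was present in most cells, and the rest of the sum came from few cells: 66 chosen cells held 200 CP10k or more of S100a8 and S100a9, 28 of them in young and 27 in aged steady-state marrow, and 15 of the 66 were called doublets. Single cells carried other lineages. In aged steady-state marrow 1 cell held 89.1% of the B lineage UMIs, in young blood 1 cell held 84% of the erythroid UMIs, and in aged marrow after stroke 1 cell held 96.2% of the basophil and mast cell UMIs. The monocyte list summed to 63.2, 59.1, 38.3 and 22.8 CP10k in marrow and to 200 and 174 CP10k in blood. The plasmacytoid list, with Siglech at 0 by rule, stood at 23 to 38.6 CP10k in the 6 libraries. The T cell list was at or below 0.536 CP10k and the NK cell list at or below 3.81 CP10k in each of them. Together 73 cells passed a limit for another lineage (29, 29, 1, 4, 3 and 7 in the same order), a limit set after the data were seen, and 563 remained without them.

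Chosen cells were then divided by the markers they carried. A cDC1-type cell had a UMI of Xcr1 or Clec9a, a cDC2-type cell had Cd209a and neither of those, and the others were known by Flt3 or Zbtb46 alone. In young steady-state marrow 82 of 176 cells were cDC1-type (46.6%, interval 39.1 to 54.2) and 25 were cDC2-type. In aged steady-state marrow these were 96 of 189 (50.8%, 43.4 to 58.1) and 19. After stroke, 26 of 41 cells of young marrow (63.4%, 46.9 to 77.9) and 47 of 76 cells of aged marrow (61.8%, 50 to 72.8) were cDC1-type, with 3 cDC2-type cells in each. The intervals of the 4 marrow libraries overlapped. In blood cDC2-type cells were the more frequent: 1 of 11 cells in young mice (9.09%, 0.23 to 41.3) and 43 of 143 in aged mice (30.1%, 22.7 to 38.3) were cDC1-type, while 7 and 71 were cDC2-type. The blood libraries were sorted on CD11b and the marrow libraries were not, so this difference between tissues cannot be told apart from the sort. A cell with both kinds of marker counted as cDC1-type, and 58 did. Of these, 28 were among the 43 cDC1-type cells of aged blood, so most of that group also carried Cd209a. Since shallow cells lose markers, the cDC1-type shares were 14.8%, 12.2%, 17.1%, 10.5%, 0% and 2.8% when the chosen cells were thinned to 1000 UMIs.

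The cDC1-type cells carried the rest of the cDC1 program, which the division did not read. Over 251 cDC1-type, 50 cDC2-type and 181 other cells of the pooled marrow libraries, Irf8, the transcription factor that sets cDC1 fate, summed to 15.4, 6.86 and 12 CP10k. Id2, which blocks E proteins and the plasmacytoid fate, summed to 13.2, 3.87 and 9.02 CP10k. Batf3 summed to 2.37, 0.955 and 1.6 CP10k, and Ifi205, an interferon-inducible gene, to 3.46, 0.588 and 1.34 CP10k. In all 4 genes the cells known by Flt3 or Zbtb46 alone lay between the others and nearer to cDC1 for Irf8 and Id2. The lysosomal genes Naaa (5.17, 1.13 and 1.38 CP10k) and Ppt1 (3.64, 0.612 and 0.831 CP10k), Tlr3 (0.831, 0.122 and 0.178 CP10k) and the adhesion molecule Cadm1 (0.437, 0.0245 and 0.00594 CP10k) were high in the cDC1-type cells alone. In blood, over 44, 78 and 32 cells, Irf8 stood at 10.4, 2.15 and 3.34 CP10k and Id2 at 5.44, 0.381 and 0.825 CP10k. The cDC1-type blood cells also carried cDC2 and monocyte transcripts. Their Cd209a, Zeb2 and Lyz2 stood at 3.08, 1.88 and 46.6 CP10k, against 0.324, 0.228 and 12.5 CP10k in cDC1-type marrow cells. These are pooled levels without a test, and 1 library can hold most cells of a subset, as aged blood does with 43 of the 44 cDC1-type blood cells.

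The cDC2-type cells carried myeloid genes beside their own program. In marrow, Clec10a, a lectin of cDC2 and macrophages, summed to 2.42 CP10k in the cDC2-type cells against 0.125 CP10k in the cDC1-type cells. Mgl2, a close relative of Clec10a whose reads may be shared with it, summed to 0.882 against 0.0221 CP10k, from 36 UMIs in 7 cells, but stood at 0.195 and 0.211 CP10k in the 2 marrow libraries with 10 or more cDC2-type cells. Sirpa, an inhibitory receptor, summed to 1.2 against 0.199 CP10k, and Zeb2, a repressor of cDC1 fate, to 1.67 against 0.228 CP10k. Irf4, the factor of the cDC2 branch, was low in marrow, at 0.245 against 0.0257 CP10k, and was as high in cDC1-type as in cDC2-type cells of blood, at 1.07 and 1.08 CP10k. The monocyte genes Lyz2 (58.1 against 12.5 CP10k), Csf1r (1.59 against 0.206 CP10k) and Cx3cr1 (2.62 against 0.346 CP10k) were higher in the cDC2-type marrow cells too. Whether monocytes with Cd209a were among these cells was not tested.

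**Figure D2:**
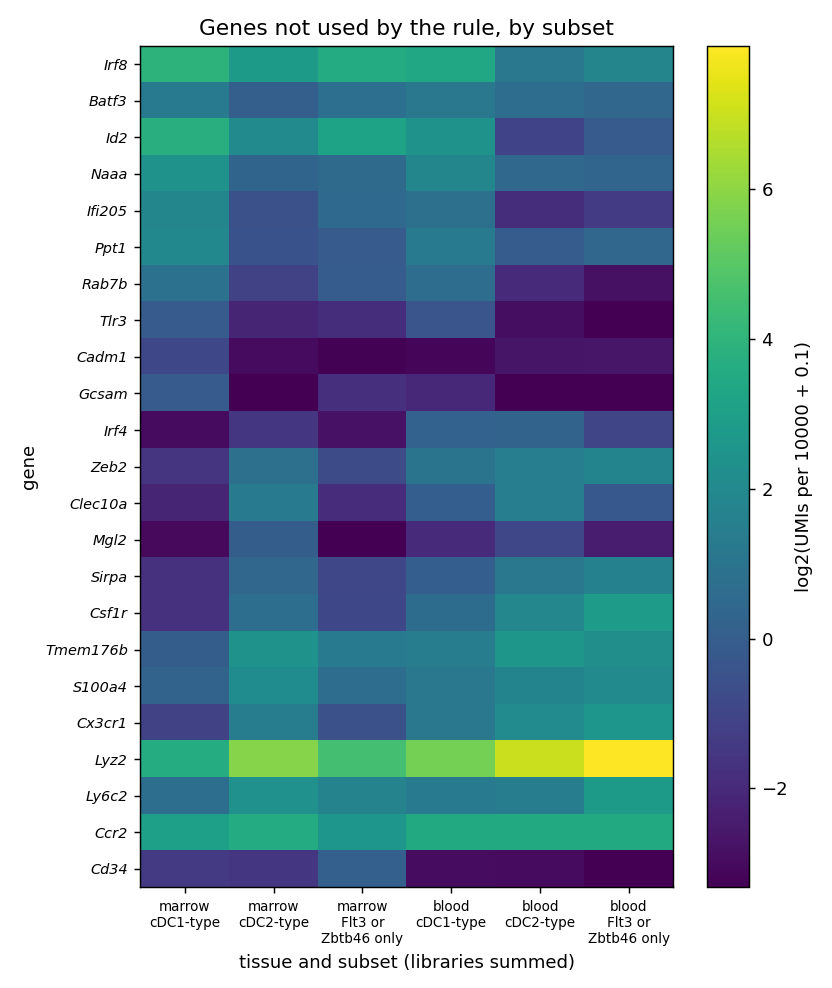
Levels of genes that the rule did not read (vertical axis) in the 3 subsets of marrow and of blood (horizontal axis), as log2 of CP10k plus 0.1 on the colour scale, libraries summed. Irf8, Id2 and Naaa are brightest in the cDC1-type columns of each tissue, and Lyz2 reaches 241 CP10k in the blood cells known by Flt3 or Zbtb46 alone.

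The cells known by Flt3 or Zbtb46 alone differed between marrow and blood. In marrow they carried progenitor transcripts: the 15 stem and progenitor genes summed to 16.3, 8.49, 1.98 and 6.80 CP10k in them in the 4 libraries, against 4.23, 3.55, 1.42 and 2.89 CP10k in the cDC1-type cells. Their class II level was low, with the rule's 4 chains at 77.9, 120, 138 and 126 CP10k against 240, 234, 266 and 337 CP10k in cDC1-type cells, and their loading genes stood at 9.55, 11.9, 14.6 and 11 against 18.7, 17, 18.5 and 21.0 CP10k. In aged blood, the only blood library with 10 or more such cells, they carried 310 CP10k of the monocyte list against 81.1 CP10k in cDC1-type and 179 CP10k in cDC2-type cells. Over both blood libraries Lyz2 summed to 241 CP10k and Csf1r, the receptor for the macrophage growth factor, to 7.12 CP10k in these cells. The cDC1-type blood cells had 46.6 and 1.48 CP10k of them, and the cDC2-type blood cells 130 and 3.61 CP10k. The blood cells known by Flt3 or Zbtb46 alone therefore went against the label, and they are 32 of the 636. The cDC2-type blood cells carried much monocyte RNA too. In aged blood their monocyte list, at 179 CP10k, was above the 157 CP10k of the other kept cells. Whether monocytes with Cd209a were among the cDC2-type blood cells was not tested. Ccr7, the receptor that takes mature dendritic cells to lymph nodes, was rare. Among the cells known by Flt3 or Zbtb46 alone it had a UMI in 16 marrow cells and 1 blood cell.

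Dividing cells were common in marrow and not found in blood. The summed level of 26 cell division genes had a median of 34.5, 44, 15.7, 14.1, 10.7 and 8.11 CP10k per chosen cell, in the order young and aged steady-state marrow, young and aged marrow after stroke, young and aged blood. The level was 50 CP10k or more in 78 of 176 cells of young steady-state marrow (44.3%, exact interval 36.8 to 52) and in 91 of 189 of aged steady-state marrow (48.1%, 40.8 to 55.5). After stroke it was so in 15 of 41 (36.6%, 22.1 to 53.1) and 21 of 76 cells (27.6%, 18 to 39.1). In blood no cell of 11 or of 143 reached it, which allows shares of up to 28.5% and 2.55% by the same interval. The intervals of young and aged marrow overlapped in both states, while those of the aged marrow libraries before and after stroke did not. The other kept cells had medians of 50.3, 46.6, 23.6, 27.2, 13.7 and 10.4 CP10k, so the lower medians after stroke and in blood were found in them too. Between 25 and 50 CP10k lay 26, 22, 2, 7, 0 and 0 chosen cells.

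**Figure D3:**
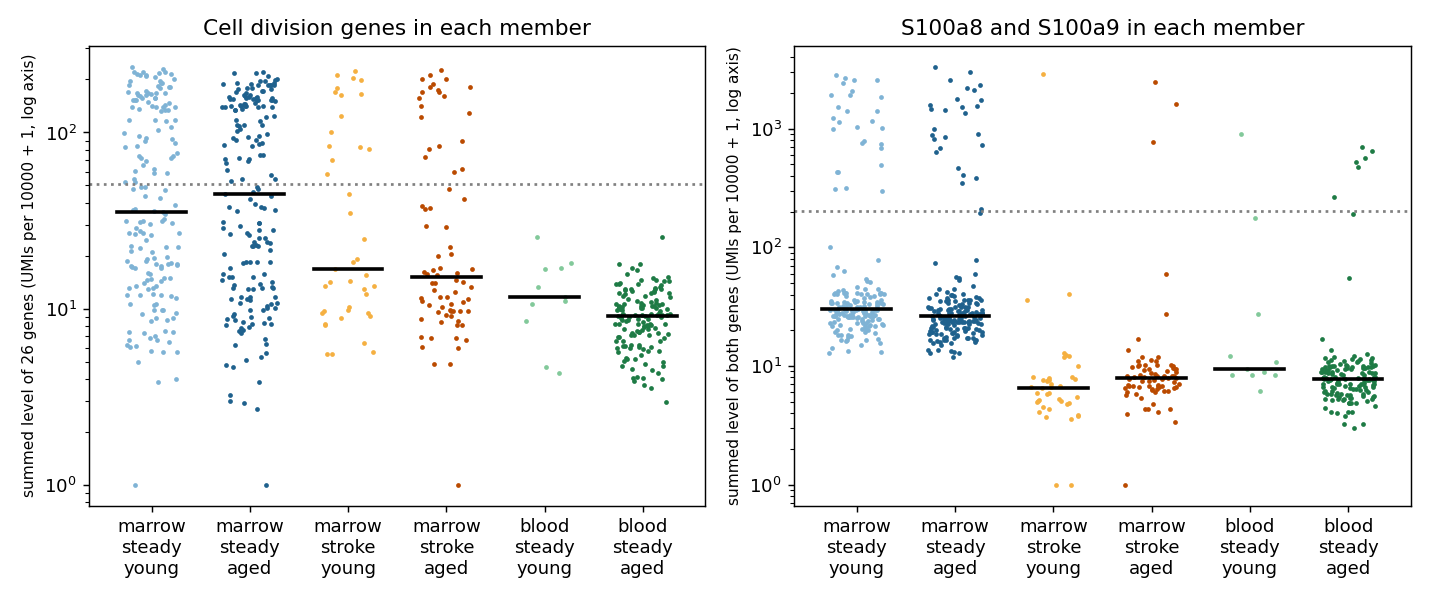
Each chosen cell by library: the summed level of 26 cell division genes and the level of S100a8 and S100a9, both in CP10k plus 1 on log axes, with lines at 50 and 200 CP10k. Black bars are medians. Between 27.6% and 48.1% of the marrow cells and 0 blood cells lie at or above the first line, and 66 cells lie at or above the second.

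The chosen cells were set against 3 other classes of the same libraries. Cells with Cd79a or with Siglech were those with at least 2 UMIs of that gene. For 12 genes outside the rule, the log2 ratio of summed levels was taken per library and tested over libraries by an exact two-sided permutation of signs, 36 tests in all. None had an adjusted p (Benjamini-Hochberg) under 0.05 and the smallest was 0.102, since 6 pairs allow no p under 0.0312; 11 of the 36 reached that value. Against cells with Cd79a, the chosen cells had more Batf3 by log2 4.98 ± 1.27 (SD over 6 libraries), more Cst3 by 3.62 ± 0.87, more Ifi30 by 2.23 ± 0.76 and more H2-DMa by 1.44 ± 0.54, higher in 6 of 6 libraries each. Against class II cells with none of the 5 dendritic genes, the chosen cells had less Csf1r, by −2.11 ± 1.16, and less Lyz2, by −1.76 ± 1.38, lower in 6 of 6, and more Ciita (0.71 ± 0.33), H2-DMa (0.68 ± 0.22) and the co-stimulator Cd86 (1.12 ± 0.88), higher in 6 of 6. The endosomal protease Ctss was lower in 6 of 6, by −0.67 ± 0.26. Irf8 was higher in 5 of 6, by 1.02 ± 0.58. Against cells with Siglech, of which 4 libraries held enough and where no p can go under 0.125, Batf3 was higher by 6.29 ± 1.16, Id2 by 4.49 ± 0.39 and Ciita by 4.66 ± 0.79 in 4 of 4, and Irf8 was lower by −0.94 ± 0.30 in 4 of 4.

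Age was compared in 3 pairs of libraries. For each gene, UMIs were summed over the chosen cells of a library and divided by their total, and a gene was called where its log2 ratio was at least 1 in size, its exact 95% interval lay off 0 and it had at least 30 UMIs in the pair. In steady-state marrow 129 of 8033 genes were called (1.61%), 63 higher and 66 lower in aged mice. After stroke 243 of 5945 were called (4.09%), 147 higher and 96 lower. In blood 359 of 6673 were called (5.38%), 146 higher and 213 lower, against only 11 cells of young mice. The split between higher and lower depends on scaling: with TMM factors it was 76 and 50 in steady-state marrow and 245 and 151 in blood, and with typed cells only (cDC1-type and cDC2-type) the higher share after stroke was 49%. When each gene lost its richest cell in each library, 174 were higher and 47 lower after stroke, and 544 and 31 in blood. Without the 73 cells with RNA of other lineages, 96 were higher and 243 lower in blood.

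Tubb6, a β-tubulin, was the only gene called higher with age in all 3 pairs, and 0 were called lower in all 3. It stood at 0.0687, 0.216, 0.0702, 0.19, 0.13 and 0.579 CP10k, from 8, 35, 5, 25, 2 and 125 UMIs. Each aged library was above its young one, with log2 ratios of 1.58 (interval 0.52 to 2.97), 1.33 (0.03 to 3.18) and 1.84 (0.27 to 5.22). In the other kept cells the same ratios were 0.68, 0.50 and 1.79, so the blood ratio was nearly that of the library at large. Both marrow pairs shared 4 genes called higher, Tubb6, Cxcl16, Irf2bpl and Slc4a8, and 2 called lower, Fos and Banp; Irf2bpl, Slc4a8 and Banp were named after their values were seen.

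Cxcl16, a membrane-bound chemokine and scavenger receptor of antigen-presenting cells (chr11:70454389-70459984), was at 0.0773 and 0.222 CP10k in young and aged steady-state marrow and at 0.14 and 0.427 CP10k after stroke. It was found in 7, 17, 5 and 23 of the marrow cells, and its log2 ratios were 1.46 (0.44 to 2.76) and 1.55 (0.62 to 2.74). In the other cells the ratio was 0.04 at steady state and 1.49 after stroke. Among cDC1-type cells alone it was 0.36 and 2.15, so the steady-state value was lost in them. Cxcl16 was at 0 and 0.153 CP10k in young and aged blood.

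Genes of antigen presentation were called with age about as seldom as all genes, of which 1.61%, 4.09% and 5.38% were called in the 3 pairs. The 4 class II chains of the rule had a median log2 ratio of 0.20 in steady-state marrow, 0.19 after stroke and 0.58 in blood, with none called; since the rule sets a floor on their sum, these are a description. The loading genes had medians of −0.10, 0.19 and 0.35, and 1 was called, H2-Oa in blood at 1.40, a chain of the inhibitor of loading. Of 13 endosomal processing genes tested in each pair, 1 protease was called higher after stroke, Ctsd, and 1 lower in blood, Ctsc, with medians of 0.07, 0.10 and −0.11. The MHC class I and cross-presentation genes had medians of 0.01, 0.03 and −0.14, with Wdfy4, needed for cross-presentation, called higher in blood. All-gene medians were −0.03, 0.00 and −0.06.

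A few immediate early genes were lower in the aged steady-state library. Jun, a subunit of the AP-1 factor, stood at 0.85 CP10k in young and 0.271 in aged steady-state marrow, a log2 ratio of −1.64 (−2.20 to −1.12). After stroke it stood at 0.323 and 0.328 CP10k, and in blood at 1.23 and 0.495 CP10k. Young steady-state marrow was the only marrow library above 0.33 CP10k, and the other cells showed the same sign at −0.74. Fos, its partner, was lower at −1.40 in steady-state marrow and −1.02 after stroke, but 1 cell held 62.5% of the UMIs in the young stroke library and without the richest cells the ratio there was 0.15. Of 16 immediate early and dissociation stress genes tested at steady state 3 were called lower, Fos, Jun and Nr4a1, against 0.822% of all genes, and 0 higher, with a list median of −0.34. In blood 3 of 18 were called lower, Fosb, Jun and Dusp1, against 3.19% of all genes there, with a median of −0.45. These genes also respond to handling of cells, whose part was not tested.

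The interferon-stimulated list summed to less in the aged library of the steady-state marrow and blood pairs, and stood higher in blood than in marrow. Its 40 genes summed to 38.9, 31.4, 38.8, 35.3, 126 and 95.7 CP10k in the 6 libraries, and the median cell held 36, 27.2, 30, 32.9, 108 and 88 CP10k. In the other kept cells the list summed to 23.9, 22.9, 26.4, 21.9, 79.1 and 67.7 CP10k, also higher in blood and lower in aged than in young blood. In the chosen cells after stroke the sum and the median cell differed in direction, and 1 young cell held 13.5% of the list's UMIs. In blood 5 of 34 tested were called lower with age (3.19% of all genes were), among them Xaf1, Zbp1, Cmpk2 and Gbp2, none was called higher, and 6 had a ratio above 0, with a median of −0.73. Zbp1, a sensor of nucleic acids, was at 1.88 and 0.768 CP10k, −1.31 against −0.33 in the other cells, and Gbp2, an interferon-inducible GTPase, was at 0.779 and 0.185 CP10k. Xaf1 stood at −1.33, but at −0.47 without the cells with RNA of other lineages. In marrow the list medians were −0.22 with 0 of 22 called and −0.28 with Isg15 and Ifi27l2a called lower of 19; in the young stroke library 1 cell held 75% of the Isg15 UMIs. Ifi27l2a, a mitochondrial interferon-inducible protein, stood at 2.01, 1.30, 1.52, 0.754, 22.5 and 12.8 CP10k, and its log2 ratios of −0.63, −1.01 and −0.81 stood beside −0.76, −1.70 and −0.63 in the other cells.

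In blood, genes of the cDC1 program were called with age. Of the 8 tested 5 were called higher in aged mice, Batf3, Id2, Naaa, Rab7b and Ifi205, against 2.19% of all genes, with a list median of 1.62. The cDC1-type cells were 1 of 11 in young and 43 of 143 in aged blood, with intervals that overlapped, and their part in these ratios was not tested. Id2 was at 0.39 and 2.12 CP10k, from 6 UMIs in 4 cells and 459 UMIs in 60 cells (log2 2.33, 1.31 to 3.90), and Batf3 at 0.519 and 1.71 CP10k (1.64, 0.73 to 2.94). In the other blood cells the Id2 ratio was −0.35. Ccnd1, the G1 cyclin (chr7:144929931-144939831), had 0 UMIs in the 11 young cells and 270 UMIs in 70 of the 143 aged cells, at least 6.42-fold higher against a floor of 3 counts in the young library, with a ratio of 1.40 in the other cells. In marrow the cDC1 program showed medians of −0.03 over 12 genes and 0.15 over 13, with none called. The 2 blood libraries also differed in transcripts of every cell: Gm13604 and Rpl36al, which resemble ribosomal genes, had log2 ratios of −6.58 and −3.64 in the chosen cells and −6.35 and −2.57 in the others, and the part of such library differences in the blood ratios was not tested.

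After stroke, some inflammatory and receptor genes were called between aged and young marrow, where 2.47% of all genes were called higher with age and 1.61% lower. Of 15 inflammatory and NF-κB genes tested, 6 were called higher in aged mice, Il1b, Ccl4, Socs3, Bcl3, Bcl2a1b and Bcl2a1d, with a median of 0.28; the Bcl2a1 genes are near-identical copies whose counts are uncertain, and 1 aged cell held 87.2% of the Bcl2a1b and 59.3% of the Bcl2a1d UMIs. One cell held 16.1% of all UMIs of the list in the aged library, at 114 CP10k. Csf2rb, the shared chain of the GM-CSF, IL-3 and IL-5 receptors, was at 0.253 and 0.724 CP10k (log2 1.49, 0.78 to 2.33) against 0.29 in the other cells. Il4ra, the IL-4 receptor chain, was at 0.112 and 0.343 CP10k, a ratio of 1.54. Cx3cr1, the fractalkine receptor of monocytes and of some dendritic cells, stood at 0.421 and 0.0762 CP10k (−2.42, −3.66 to −1.39), where the steady-state libraries had 1.2 and 0.745. Klf2, a factor of leukocyte quiescence and trafficking, was at 2.46 and 1.14 CP10k (−1.10, with −0.52 in the other cells). Clec10a was called higher at 2.96, from 64 UMIs in 6 cells against 4 in 2, so it rests on 6 cells. The stem and progenitor list had 4 of 6 tested genes called higher (Sox4, Myb, Cdk6 and Cd27, median 1.59), while at steady state its median was −0.78 over 12 genes, with Hlf and Angpt1 called lower. Hlf, a factor of stem cells, was at 0.636 and 0.191 CP10k there, in 19 and 12 cells (−1.72, against 0.49 in the other cells).

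**Figure D4:**
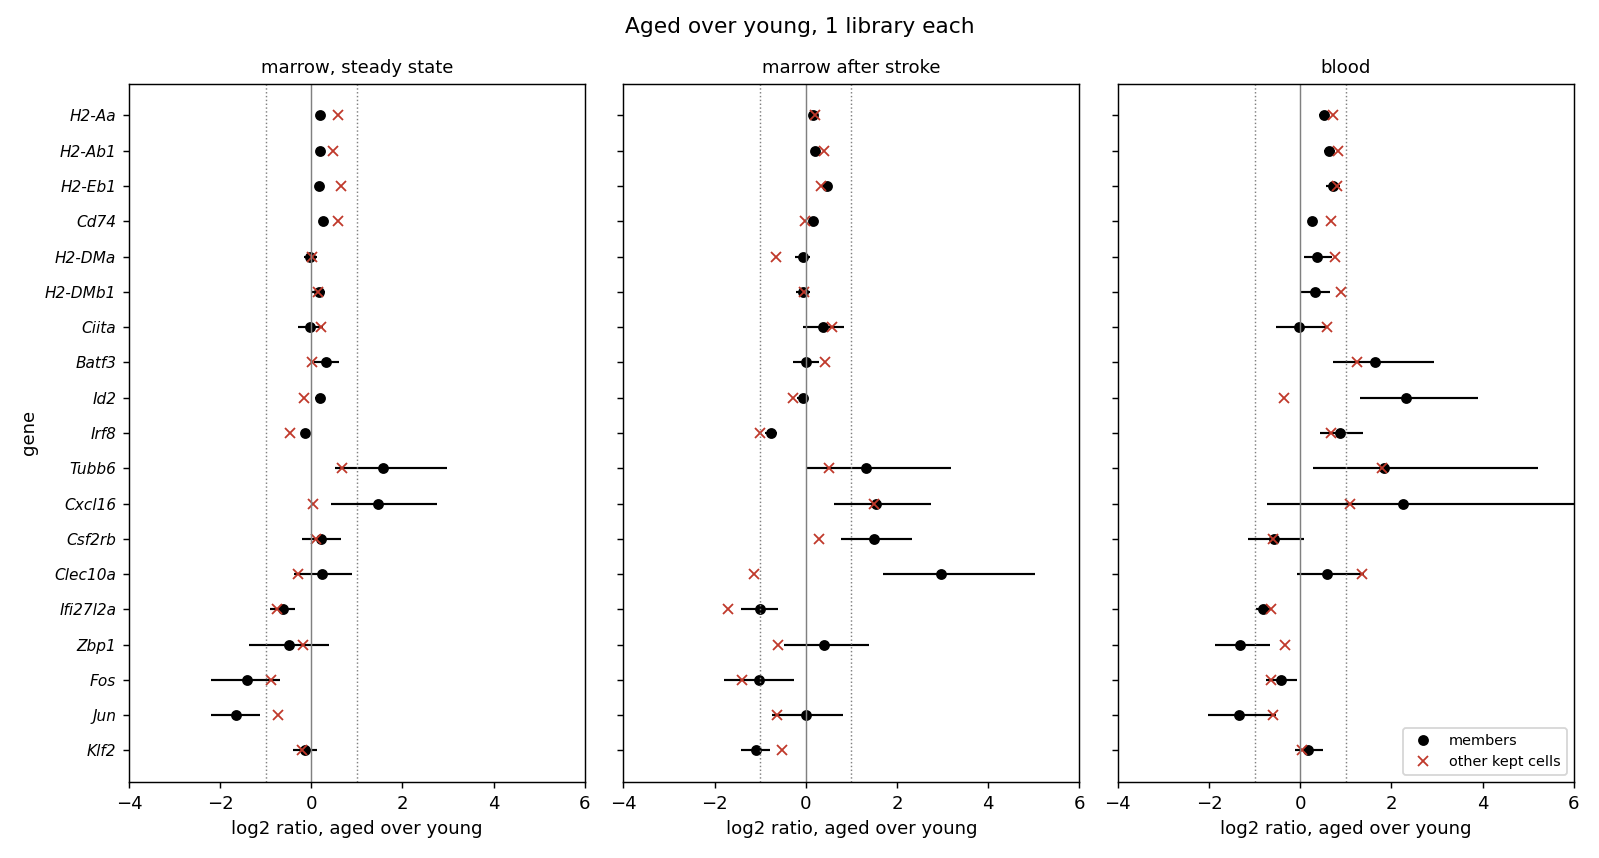
Log2 ratio of aged over young for named genes (vertical axis) in the 3 pairs of libraries: points are the chosen cells with exact 95% intervals, crosses the other kept cells, and dotted lines the fold that calls a gene. Tubb6 lies right of the line at 1 in all 3 panels (1.58, 1.33 and 1.84); the Cxcl16 interval in blood has no upper end because the young library held 0 UMIs.

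Stroke was compared in young and in aged marrow. Of 6592 genes in young marrow 1701 were called (25.8%), 276 higher and 1425 lower after stroke. In aged marrow 1988 of 7805 were called (25.5%), 407 higher and 1581 lower. Both pairs shared 221 genes called higher and 723 called lower. The median log2 ratio of all genes was −0.44 in each pair, which moves most genes down, and with TMM factors it was −0.04 and −0.08 and the split became 501 higher and 600 lower in young and 624 and 709 in aged marrow. Ratios below are relative to library totals and are to be read against −0.44. The stroke libraries also differed from the others in all cells: Gm10736 and Rpl6l, which resemble ribosomal genes, had ratios of 5.98 and 5.09 in young and 5.32 and 4.51 in aged chosen cells, and 5.59, 4.49, 5.15 and 4.23 in the other cells. Such differences between libraries cannot be told apart from stroke in this design, since each state is 1 library per age.

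Ifitm1, an interferon-inducible membrane protein (chr7:140967429-140969827), was among the genes with the largest difference. It stood at 1.21 and 1.03 CP10k in young and aged steady-state marrow, at 16.1 and 26.4 CP10k after stroke, and at 0.649 and 0.245 CP10k in blood. It was detected in 41, 56, 28 and 60 of the 176, 189, 41 and 76 marrow cells. The log2 ratios were 3.73 (3.48 to 3.99) in young and 4.67 (4.45 to 4.90) in aged marrow, above those of the other cells, 2.25 and 2.28. Its neighbour in the family, Ifitm3, was at 9.31, 7.1, 15.3 and 16.8 CP10k, with ratios of 0.72 and 1.24. The interferon-stimulated list, which holds Ifitm3 and not Ifitm1, had medians of 0.04 and −0.46. Of 19 tested in young marrow 1 was called higher, Isg15, with 75% of its UMIs in 1 cell, and of 20 in aged marrow 1, Ifitm3.

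Some genes known to be induced by glucocorticoids, the stress steroids, were called higher, where 4.19% of all genes in young and 5.21% in aged marrow were. Of the list, 4 of 8 tested in young marrow were called higher, Fkbp5, Tsc22d3, Ddit4 and Dusp1, with a median of 0.76, and 3 of 9 in aged marrow, Fkbp5, Ddit4 and Dusp1, with a median of 0.39 and with Sgk1 called lower. Ddit4, an inhibitor of mTOR signalling (chr10:59949675-59951770), stood at 0.0773 and 0.166 CP10k before and 1.43 and 1.11 CP10k after stroke, in 9, 23, 33 and 49 cells in the order young and aged at steady state, young and aged after stroke. Both stroke libraries lay above both steady-state libraries. Its ratios were 4.14 (3.23 to 5.38) in young and 2.72 (2.14 to 3.39) in aged marrow, against 3.43 and 1.97 in the other cells. Fkbp5, a chaperone of the glucocorticoid receptor (chr17:28398753-28486149), stood at 0.318 and 0.302 CP10k before and 0.716 and 0.663 CP10k after stroke, with ratios of 1.17 (0.53 to 1.82) and 1.13 (0.61 to 1.67), against 0.73 and 0.27 in the other cells. Dusp1, a phosphatase of MAP kinases, had 1.08 and 1.07, while Tsc22d3 had 1.19 and 0.39 and Sgk1 −0.41 and −1.34. Junb, of the AP-1 family, stood at 0.902, 0.918, 2.33 and 2.29 CP10k.

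**Figure D5:**
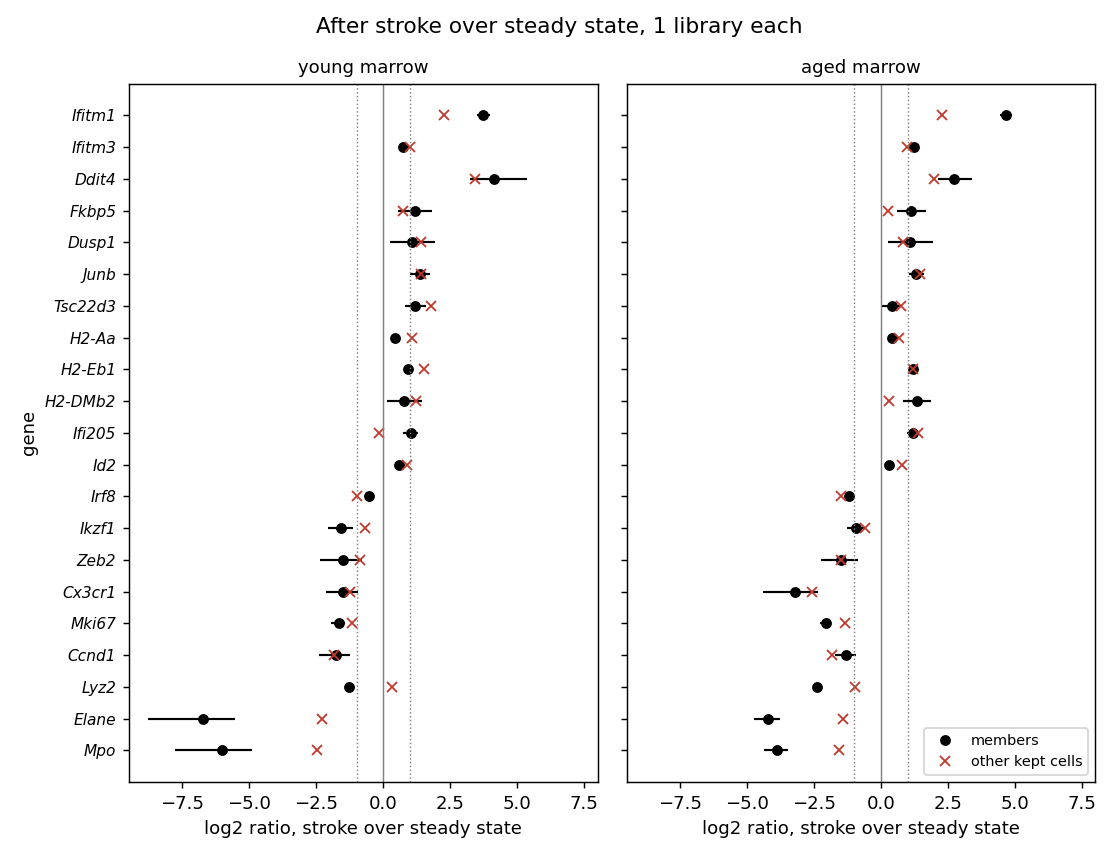
Log2 ratio of marrow 24 h after stroke over steady state for named genes (vertical axis) in young and aged mice: points are the chosen cells with exact 95% intervals, crosses the other kept cells, and dotted lines the fold that calls a gene. Ifitm1 (3.73 and 4.67) and Ddit4 (4.14 and 2.72) lie farthest right, and Elane (−6.74 and −4.22) farthest left.

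The class II chains, which the rule read, stood higher after stroke, and these values are a description. H2-Eb1 stood at 18.1 and 20.6 CP10k before and 34.2 and 47.4 CP10k after stroke, with ratios of 0.92 (0.83 to 1.0) in young and 1.21 (1.15 to 1.27) in aged marrow, and 1.5 and 1.18 in the other cells, and it was called in aged marrow only. H2-Aa stood at 36.5, 41.9, 48.9 and 55.1 CP10k, and Cd74, the invariant chain, at 73.5, 87.5, 107 and 120 CP10k. The list medians were 0.51 and 0.47, against −0.44 over all genes. Loading genes, which the rule did not read, had medians of 0.26 and 0.26, with H2-DMb2 called higher in aged marrow at 1.33 and at 0.78 in young marrow. Ciita itself was at −0.88 and −0.48, not called in either pair. The chosen cells were deeper after stroke, with median totals of 15192 and 15480 UMIs against 5707 and 7420, and the share of cDC1-type cells was 63.4% and 61.8% against 46.6% and 50.8%. In cDC1-type cells alone the 4 chains summed to 240 and 234 CP10k before and 266 and 337 CP10k after stroke. The H2-Eb1 ratios in these cells were 0.43 and 1.18.

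Irf8, the factor of cDC1 fate, was lower after stroke in aged marrow. It was at 17.7, 16.2, 12.1 and 7.11 CP10k in the 4 marrow libraries and at 2.73 and 5.04 CP10k in blood. Its stroke ratio was −0.55 in young and −1.19 (−1.30 to −1.08) in aged marrow, called in the latter, beside −0.97 and −1.5 in the other cells and −0.15 and −0.83 with TMM factors. Ifi205 was at 1.63, 1.65, 3.33 and 3.78 CP10k, called higher in both at 1.03 and 1.19. Of 12 cDC1 genes tested in young marrow Ifi205 was called higher and Rab7b lower, with a median of 0.51. In aged marrow 5 of 13 were called higher (Itgae, Ifi205, Gcsam, Snx22 and Tlr11), against 5.21% of all genes, and Irf8 lower, with a median of 0.32. Of the cDC2 program 5 of 16 tested were called lower in young marrow, Clec10a, Itgam, Itgax, Zeb2 and Ffar2, where 21.6% of all genes were. In aged marrow 3 of 17 were, Itgam, Zeb2 and Ffar2, a share not above the 20.3% of all genes, while Mgl2 and Tmem176a were called higher. The medians were −0.68 and −0.63, and the cDC2-type cells were 3 of 41 and 3 of 76 after stroke against 25 of 176 and 19 of 189 before. Zeb2 had ratios of −1.52 and −1.5, and Ikzf1, a factor of early lymphoid and dendritic development, −1.57 and −0.94.

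Some cell division genes were called lower after stroke. Of 26 tested, 9 were called lower and 2 higher (Hmgb2 and H2afz) in young marrow, where 21.6% of all genes were called lower, with a median of −0.50. In aged marrow 11 were called lower and 1 higher, against 20.3% of all genes called lower, with a median of −0.81. With TMM factors these medians were −0.09 and −0.44, so in young marrow the list stood near all genes. The summed level of the list was 83.5 CP10k before and 85.1 CP10k after stroke in young marrow, so it did not fall there. In aged marrow it went from 85 to 65.8 CP10k. Mki67, a marker of cycling cells, was at 6.65, 7.11, 2.08 and 1.70 CP10k, ratios of −1.67 and −2.06, and Ccnd1 was at −1.78 and −1.30. Oxidative phosphorylation genes had medians of 0.14 and 0.22. In each pair 3 of 27 were called higher, Ndufb8, Ndufs5 and Cycs, where 4.19% and 5.21% of all genes were.

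Neutrophil, monocyte and, in young marrow, progenitor transcripts were lower in the chosen cells after stroke, read against 21.6% and 20.3% of all genes called lower. Of 15 neutrophil genes 13 were called lower in young marrow and 15 in aged marrow, with medians of −2.10 and −2.15. Elane, neutrophil elastase of promyelocytes, stood at 6.73, 5.19, 0.0561 and 0.274 CP10k, in 90, 112, 4 and 21 cells, and Mpo, myeloperoxidase, at 4.97, 5.37, 0.0702 and 0.358 CP10k. The monocyte list had medians of −1.27 and −1.21, with 6 called lower and 1 higher in young and 7 of 12 lower in aged marrow, and Lyz2 stood at 29.5, 28.7, 12.2 and 5.43 CP10k. Of the stem and progenitor genes 10 of 11 tested were called lower in young marrow (median −3.35) and 3 of 12 in aged marrow (−0.51). In the other kept cells Elane had ratios of −2.30 and −1.43 and Mpo −2.46 and −1.56. Their stem and progenitor list went from 16.2 to 6.09 CP10k in young and from 16 to 7.01 CP10k in aged marrow. Their neutrophil list rose from 1056 to 1258 and from 998 to 1430 CP10k. Their monocyte list went from 79.4 to 117 and from 77.7 to 60.2 CP10k. Hlf had 0 UMIs in young marrow after stroke, at least 15.1-fold lower than at steady state against a floor of 3 counts. Other lineages went both ways. The B lineage list had 3 of 5 tested genes called lower in young marrow, with a median of −1.60. In aged marrow 6 of 6 were (−2.30), and 1 aged steady-state cell held 89.1% of the B lineage UMIs. Of the plasmacytoid list 4 of 7 were called lower in young (−1.08) and 4 of 9 in aged marrow (−0.91). In aged marrow 4 of 5 basophil and mast cell genes tested were called higher, from 0.548 to 10.4 CP10k for the list with 96.2% in 1 cell. The NK cell list stood at 2.79 and 3.66 CP10k in young marrow, where Klrd1 was called higher and Nkg7 lower. In aged marrow it stood at 3.81 and 1.99 CP10k. The part of these transcripts in the share of genes called lower was not tested. Il12a, a subunit of interleukin 12, was at 0.266, 0.172, 0 and 0.0762 CP10k, called lower in both pairs.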

How the data were processed

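The deposited data are whole-number UMI counts in 1 table, 23016 genes by 28055 cell barcodes, from 6 libraries of 10x 3′ single-cell RNA-seq. STAR 2.5.3a, featureCounts 1.6.4 with Subread, Cell Ranger 3.0.2, UMI-tools and the build GRCm38/mm10 appear in the submitters' processing notes, with no role or order; filters made before deposit are not given in the sources used here. Columns were assigned to libraries by the name in front of each barcode.

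Cells with at least 500 UMIs and at most 10% mitochondrial UMIs were kept (26893), with library totals of 10208699 to 72743805 UMIs. Doublets were called by simulation against 30 principal components and were not removed. Levels are 10000 times summed UMIs over summed totals (CP10k). Ratios carry 0.5 added UMI and exact conditional 95% intervals, which cover counting error only; with 1 library per group there is no replicate error and no p-value between groups. Genes under 30 UMIs in a pair were not tested. Classes of cells were compared over libraries by exact sign permutation with Benjamini-Hochberg adjustment.

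The members and gene lists (31 lists, 493 of 501 genes measured) were chosen with earlier results of these data known. Any listed gene may be named, and in each pair the 10 highest and 10 lowest ratios with at least 50 UMIs, and genes called in all 3 age pairs or both stroke pairs; others are said to be named after their values were seen. Alternatives were TMM scaling (edgeR 4.0.16 on the summed counts, with no count test), other minimum UMIs, other thresholds of the rule, equal depth and cells typed cDC1 or cDC2 only. Those without each gene's richest cell, without cells rich in RNA of other lineages, and in cDC1-type cells only were added after the data were seen. The scripts ran in R 4.3.3 and in Python 3.11.15 with scipy 1.17.1, pandas 2.3.3, numpy 2.4.6 and scikit-learn 1.9.0, and the interval and ratio code was tested on simulated data. Promoter windows came from RefSeq on GRCm38.p6; protein sequences were not used here. One gene of the lists is not reported here.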

Additional observations from a re-analysis of the deposited data

Results flagged for a closer look

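Some genes were called in opposite directions in 2 pairs that ask the same question; these differences were not tested, and the ratios are log2. Nfil3, a factor of dendritic and NK cell development, had an age ratio of 1.63 in marrow after stroke and −1.01 at steady state, and a stroke ratio of 1.41 in aged and −1.23 in young marrow. It stood at 0.275 and 0.135 CP10k in young and aged steady-state marrow and at 0.112 and 0.366 CP10k after stroke, and 1 pair of levels enters both of these differences. In cDC1-type cells alone the age ratios were 0.86 and −0.26.

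Olfm4, a granule gene of neutrophils, had age ratios of 6.78 after stroke and −3.01 at steady state and stroke ratios of 3.45 in aged and −6.35 in young marrow, from 66, 11, 0 and 101 UMIs in the 4 marrow libraries. One cell held 97.0% of those in aged marrow after stroke. With 0 UMIs in young marrow after stroke, the age ratio there is at least 18.3-fold and the young stroke ratio at least 13.5-fold lower, against a floor of 3 counts.

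Il1b, an inflammatory cytokine, had an age ratio of 1.09 in marrow after stroke and −1.90 in blood, at 0.225 and 0.488 CP10k and at 5.65 and 1.52 CP10k in young and aged mice. Hdc, the histamine-forming enzyme, had 2.19 and −1.87 in these pairs. Cxcr2 had 1.25 and −1.51, the latter turning to 1.11 in cells typed cDC1 or cDC2. Retnlg had 1.52 and −2.98; in blood it was 2.34 in typed cells and 1.07 without the richest cells, and after stroke −0.32 without cells rich in RNA of other lineages. Dedd2 had 1.34 at steady state and −1.92 in blood, and Stfa2l1 1.05 and −3.07, the former at −0.92 in typed cells. Chil3 had 2.96 in blood and −1.16 in marrow after stroke, the latter at 0.37 without the richest cells. Ccl5 had 1.28 at steady state, 2.12 in blood (−0.41 without cells rich in RNA of other lineages) and −1.61 after stroke, where 1 cell held 98% of the UMIs of the young library. Chil3, Cxcr2, Retnlg and Stfa2l1 are expressed by neutrophils, whose RNA was concentrated in few of the chosen cells.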

How the results depend on the processing

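No paired analysis was possible because each group is 1 library. Member shares in young and aged steady-state marrow were 1.63% and 2.33% with a class II sum of at least 40 CP10k, and 1.55% and 2.11% with at least 2 UMIs of the dendritic genes (2.17% in aged blood). At 1000 UMIs per cell they were 1.17% and 1.21%, with 0.761% and 1.24% after stroke and 1.07% in aged blood. The cDC1-type share, in library order, was 14.8%, 12.2%, 17.1%, 10.5%, 0% and 2.8% at that depth, and 9.66%, 11.6%, 12.2%, 34.2%, 0% and 6.29% by Xcr1 alone. Genes called with age numbered 255 at steady state and 428 after stroke with a minimum of 10 UMIs. With a minimum of 100 UMIs they were 12, 36 and 165 in the 3 age pairs and 539 and 850 in the stroke pairs, as fewer genes were tested. Without each gene's richest cell 575 were called in blood, where that removes 1 of 11 young cells but 1 of 143 aged cells. In young marrow stroke called 1127 in cells typed cDC1 or cDC2, 1101 with TMM and 993 in cDC1-type cells.

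Ratios that reversed, with the cause not tested except where 1 cell is named, were these. In cDC1-type cells Banp was 0.04 and Stfa2l1 −1.29 at steady state, and Ngp 4.24 and Chil3 1.91 with age after stroke. In cells typed cDC1 or cDC2, Dusp1 was 0.37, Retnlg 2.34 and Cxcr2 1.11 in blood, and Igkc −0.75 and Stfa2l1 −0.92 with age at steady state. Without the richest cells Fos was 0.15, Ngp 3.24 and Chil3 0.37 with age after stroke, Retnlg 1.07 in blood, and Igkc −0.23, of which 1 aged cell held 97.7%. Without cells rich in RNA of other lineages Igkc was −1.0 at steady state, Hbb-bs 0.74 and Ccl5 −0.41 in blood, Ngp 0.67 and Retnlg −0.32 with age after stroke, and Chil3 0.25 for stroke in aged marrow. Reversals were found under no other alternative. Depth limits young blood most, with 11 cells, and young marrow after stroke, with 41.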

Other observations

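Genes of maturation were at low summed levels in the chosen marrow cells. The mature dendritic cell list summed to 3.35, 4.57, 2.10, 2.54, 2.79 and 4.93 CP10k in young and aged steady-state marrow, young and aged marrow after stroke, and young and aged blood. With age 2 of 8 tested were called higher at steady state, Ccr7 and Ccl5, against 0.784% of all genes. With stroke 2 of 5 in young and 2 of 9 in aged marrow were called lower, where 21.6% and 20.3% of all genes were. Called higher with stroke were 4.19% and 5.21% of all genes, and the stroke calls below are to be read against these shares. Ccr7 had 9 UMIs in 7 young and 37 UMIs in 8 aged cells of steady-state marrow, with 78.4% of the latter in 1 cell, and 35 UMIs in 1 cell of aged blood. Co-stimulatory and checkpoint ligands summed to 5.96 to 8.38 CP10k over the 6 libraries, against 2.33 to 3.53 CP10k in the other kept cells. Havcr2, an inhibitory receptor also known as Tim-3, was called higher of 6 tested with age at steady state. Cd200 was called higher of 8 with stroke in aged marrow.

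Cytokines and chemokines were at 6.67 to 8.17 CP10k in marrow and at 24.5 and 22.4 CP10k in blood, against 77.6 and 66.9 CP10k in the other blood cells. Of 9 tested with age after stroke 4 were called higher and 1 lower, against 4.09% of all genes called. Il18, a cytokine of the inflammasome, and Ccl4, a chemokine, were called higher in aged marrow after stroke, both against young marrow after stroke and against aged marrow at steady state, 2 comparisons that share the aged stroke library. Il12a and Ebi3, both subunits of the interleukin 12 family, were called lower with stroke in both ages. Cxcl9 rested on 56 UMIs in 2 cells of young steady-state marrow.

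Pattern and uptake receptors summed to 19.9, 18.7, 13.4 and 12 CP10k in marrow and to 44.4 and 36.1 CP10k in blood. Tlr12, a sensor of profilin, was called lower with stroke in both ages, and Tlr13, a sensor of bacterial ribosomal RNA, higher in aged marrow after stroke in both pairs that hold that library. Actin and motility genes summed to 456 to 557 CP10k in the chosen marrow cells against 234 to 309 CP10k in the other marrow cells, while in blood the levels were 513 and 515 against 572 and 515 CP10k. With stroke, Actg1 and Tmsb10 were called higher and Lcp1 and Myo1f lower in both ages. Chemokine and migration receptors stood at 13.4 to 23.4 CP10k in marrow, against 6.84 to 10.2 CP10k in the other marrow cells. In young and aged blood they stood at 25.7 and 28 CP10k, against 29 CP10k in the other cells of each. With stroke in aged marrow Gpr183, an oxysterol receptor that positions dendritic cells, was called higher and Ccr7, Cx3cr1 and Itgb7 lower.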
